A study of Mus musculus with 12 samples.

Results

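The 58 genes described here encode proteins of the nucleolus and the factors that build ribosomes, and they were listed by name, with earlier results of these data known. All 58 were found by symbol among the 49585 genes of the count files, and all passed the filter on low counts in both kinds of library. Naive CD4 T cells, isolated from the lymph nodes of female mice, were activated for 20 h on plates coated with anti-CD3 (5 µg/ml) and anti-CD28 (1 µg/ml), with cycloheximide (0.1 mg/ml) added for the last 1 min to hold ribosomes on mRNA. Both genotypes carried floxed Rnmt alleles (Rnmt fl/fl), with exon 3 of Rnmt, the enzyme that methylates the cap guanosine of mRNA, between loxP sites. Controls were CD4cre -, and Rnmt cKO (conditional knock-out) mice were CD4cre +, so that deletion began in the thymus, in cells that later become CD8 T cells as well. There were 3 control and 3 Rnmt cKO replicates, each with a library of total cytoplasmic RNA and a library of ribosome protected fragments (RPF). No age was given in the sources used here. Nor was it stated whether a replicate was 1 mouse or a pool, so p-values measure the spread between these samples.

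Ribosomes are assembled in the nucleolus, where a long precursor rRNA is transcribed, modified and cut. Small nucleolar ribonucleoproteins (snoRNPs) guide most modifications, the box C/D class for ribose methylation and the box H/ACA class for pseudouridine. The small subunit processome, which includes the U3 snoRNP and the UTP-A, UTP-B and Mpp10 modules, forms on the nascent rRNA, while a separate set of factors such as the PeBoW complex (Pes1, Bop1 and Wdr12) matures the large subunit. T cells raise the production of ribosomes when they are activated, before they divide.

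Many of these genes are known in other cells as targets of Myc, which binds the E-box together with Max, and their promoters were searched for that reason. RefSeq promoter windows (GRCm38.p6, 250 bases before to 50 after a gene start) were held for 51 of the 58 genes. The E-box CACGTG, the same on both strands, was found in 10 of the 51 genes (19.6%), beside 1049 of 8440 genes tested in total RNA (12.4%) and 2187 of all 27025 genes of the promoter table (8.09%). The 10 were Imp4, Ltv1, Nle1, Nop2, Pes1, Tsr1, Utp18, Utp20, Utp4 and Wdr43. The stretches below show 4 of these sites, in genes of the small subunit processome and of PeBoW, 5′ to 3′ on the strand of the gene, with the E-box in capitals.

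Wdr43 (chr17:71616220-71616249, plus strand): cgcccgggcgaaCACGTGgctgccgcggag

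Utp4 (chr8:106893643-106893672, plus strand): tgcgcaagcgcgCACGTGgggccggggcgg

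Imp4 (chr1:34439696-34439725, plus strand): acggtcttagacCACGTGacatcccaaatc

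Pes1 (chr11:3963965-3963994, plus strand): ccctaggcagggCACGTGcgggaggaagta

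After the sequences had been read, a motif of the ETS family, CCGGAAG on either strand (written CTTCCGG on the other), was counted as well, and it does not overlap the E-box in letters. It was found in 21 of the 51 genes (41.2%), beside 1933 of the 8440 genes tested (22.9%) and 2683 of all 27025 (9.93%). The stretches below show it near the start of genes with large changes, in capitals.

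Brix1 (chr15:10485913-10485942, minus strand): cgagcggcagaaCCGGAAGtgcaggcagcg

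Noc2l (chr4:156236001-156236030, plus strand): ggcattctgggcCCGGAAGtgcggcgcacg

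Gar1 (chr3:129831422-129831451, minus strand): cgcgccgccacaCTTCCGGaaacgtcgcgt

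The median log2 fold change in total RNA, Rnmt cKO over control, was 0.78 in the 10 genes with an E-box and 0.64 in the 41 without. For the ETS motif these medians were 0.74 in 21 genes and 0.58 in 30. A match of letters is a description of the window and not a measured binding site, and no difference between these groups was tested.

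The deleted gene was measured first. In total RNA, Rnmt had 95.3, 93.9 and 94.1 CPM in the control libraries and 29.3, 32.3 and 30.3 CPM in those of Rnmt cKO, and in RPF 104, 87.7 and 98.7 CPM in the control libraries and 10.5, 10.3 and 9.57 CPM in those of Rnmt cKO. Its log2 fold change was -1.62 (SE 0.06, adjusted p = 5.84e-06) in total RNA and -3.24 (SE 0.10, adjusted p = 4.81e-06) in RPF, by the quasi-likelihood test of edgeR, where SE is the standard error, and all adjusted p-values here come from it, with the Benjamini-Hochberg method. The genotypes were far apart in both kinds of library, and the counts are of the whole gene, not of the deleted exon 3 alone. Depth was 18915961 to 19111659 reads on genes in the control libraries of total RNA and 15079703 to 22629563 in those of Rnmt cKO. The RPF libraries held 6786164 to 10661356 reads in controls and 4123271 to 10166729 in Rnmt cKO.

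Markers of T cells were high, and their sum was lower in Rnmt cKO. Of the 7 markers, Cd28 was the most abundant in total RNA. In RPF this was Cd5 in controls (mean 1250 CPM) and Cd3e in Rnmt cKO (mean 977 CPM). The 7 summed to 3396, 3274 and 3102 CPM in the control libraries of total RNA and 2338, 2341 and 2686 CPM in those of Rnmt cKO, and to 6249, 5678 and 5870 CPM in controls and 4610, 4115 and 4727 CPM in Rnmt cKO in RPF. Cd3d, Cd3g, Cd5 and Lck, of the T cell receptor complex and its signaling, were decreased in both, with log2 fold changes of -0.74 ± 0.11, -1.23 ± 0.11, -0.65 ± 0.13 and -0.90 ± 0.06 in total RNA. Cd3e, of the same complex, had 0.10 (adjusted p = 0.474) and Cd28 -0.01 (adjusted p = 0.915) in total RNA, and neither passed the threshold in RPF. Cd4 had 349, 323 and 315 CPM in the control libraries and 297, 270.4 and 315 CPM in those of Rnmt cKO of total RNA and did not pass the threshold in total RNA or RPF. The 5 B cell markers summed to 9.53, 6.02 and 33.6 CPM in the control libraries of total RNA and 86.2, 104 and 19.1 CPM in those of Rnmt cKO, with Ms4a1 the most abundant, and none was at 0 in all libraries. In RPF the same sums were 11.7, 8.57 and 41.1 CPM in controls and 128, 141 and 22.1 CPM in Rnmt cKO. Cd79b and Ms4a1 were increased in both, out of 4 B cell markers tested in total RNA and 5 in RPF. The 2 CD8 markers summed to 21.4, 21.3 and 41.6 CPM in controls and 26.4, 21.3 and 9.83 CPM in Rnmt cKO in total RNA, and neither passed the threshold. By group mean Cd8a was slightly the more abundant in total RNA, and Cd8b1 was in RPF. The order varied between libraries of total RNA, with Cd8b1 above Cd8a in control replicate 1 (11.6 and 9.74 CPM). Of the 4 NK cell markers, 2 were tested. Eomes, the most abundant in Rnmt cKO, was increased, with 3.13 ± 0.26 in total RNA, and Klrd1 had -0.36 (adjusted p = 0.258). The 4 summed to 5.51, 6.02 and 7.32 CPM in controls and 22.8, 38.9 and 24.5 CPM in Rnmt cKO in total RNA, most of the latter from Eomes. Eomes is also made by T cells. The 4 markers of regulatory T cells summed to 344, 352 and 331 CPM in controls and 428, 466 and 428 CPM in Rnmt cKO, where Il2ra, the most abundant and also a marker of activation, and Ikzf2 were increased and Foxp3 stayed under 1 CPM in total RNA. Ctla4, the fourth, went the other way, with 170.0, 162 and 135 CPM in the control libraries and 119, 74.5 and 134 CPM in those of Rnmt cKO and -0.51 (adjusted p = 0.059) in total RNA. The 5 myeloid markers (Lyz2 the most abundant) summed to at most 0.948 CPM in total RNA and 0.682 CPM in RPF, and the 3 erythroid markers (Hbb-bs the most abundant) to at most 0.106 and 2.21 CPM. The replicate 3 libraries thus stood apart from the others of their genotype in B cell and CD8 markers. Of the 51 genes increased in total RNA below, 29 had their highest control value in control replicate 3. The lowest Rnmt cKO value was that of replicate 1 for 22 of them, replicate 3 for 21 and replicate 2 for 8. The part of these markers in the results was not tested.

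Relative to the rest of the library, total RNA of the ribosome biogenesis genes was mostly higher in Rnmt cKO cells. Of the 58 genes, 51 were increased and 4 decreased, beside 26.3% of all 11519 genes tested increased and 28.0% decreased. The median log2 fold change was 0.63 (1.55-fold), whereas that of all genes tested was -0.00370. The libraries of the genotypes did not overlap for 55 of the 58 genes, beside 62.3% of all genes tested. Because counts are relative to each library's total, these values give a share of the RNA and not an amount per cell. Fewer cells of a type and less RNA per cell cannot be told apart from these counts. The paper measured less mRNA per cell in activated Rnmt cKO cells and states that increases are overestimated in such counts for that reason.

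**Figure D1:**
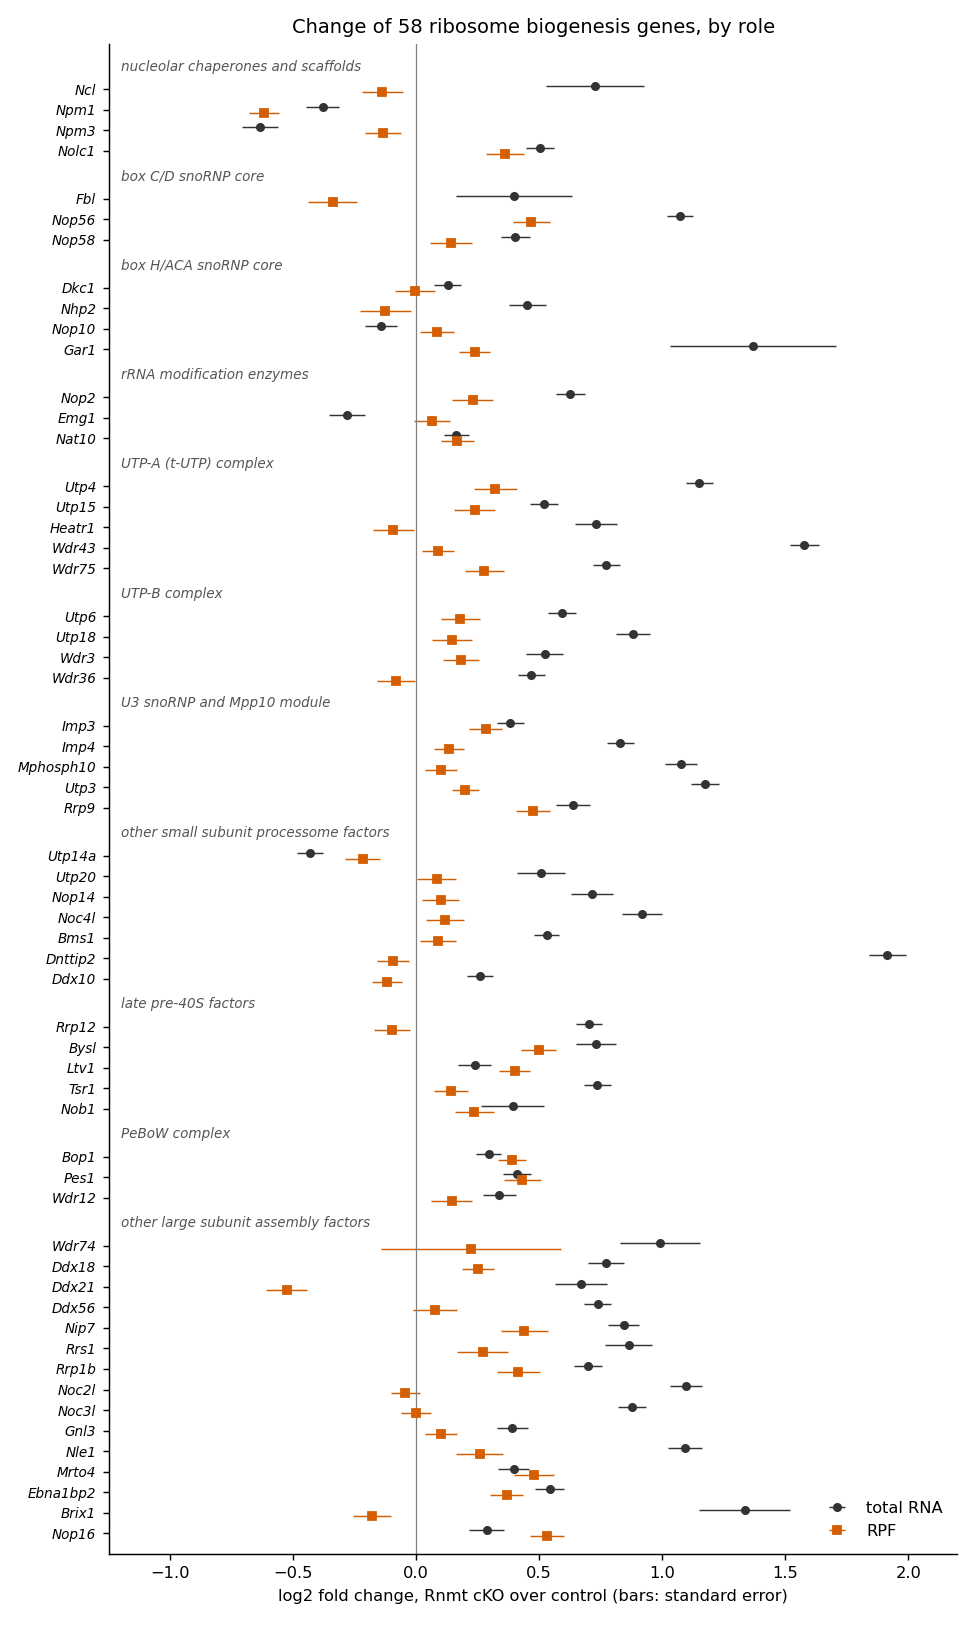
Log2 fold change of Rnmt cKO over control (x axis) for the 58 genes (y axis), grouped by role; circles are total RNA, squares are RPF and bars are standard errors, from 3 libraries per genotype. Most circles lie to the right of 0, with a median of 0.63, and most squares lie closer to 0, with a median of 0.14.

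These genes took up a larger share of the library in Rnmt cKO cells. They held 1.27, 1.26 and 1.29% of the counts on protein-coding genes in the control libraries of total RNA and 1.87, 1.89 and 1.84% in those of Rnmt cKO. In RPF the shares were 1.84, 1.79 and 1.81% in controls and 1.88, 1.99 and 1.79% in Rnmt cKO, and the genotypes overlapped. Ncl held much of the RPF counts, and without it the shares in RPF were 1.45, 1.41 and 1.44% in controls and 1.51, 1.61 and 1.47% in Rnmt cKO. The other 57 genes held 1.20% in each of the 3 control libraries of total RNA and 1.74, 1.75 and 1.75% in Rnmt cKO.

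**Figure D2:**
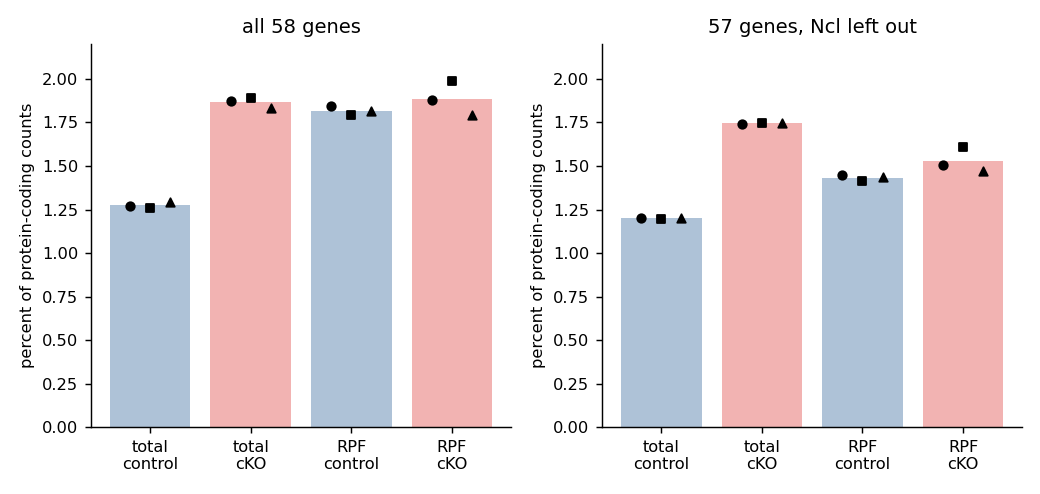
Percent of counts on protein-coding genes (y axis) held by all 58 genes (left) and without Ncl (right) in total RNA and RPF; bars are means of 3 libraries, and circles, squares and triangles are replicates 1, 2 and 3. In total RNA the control libraries lie at 1.26 to 1.29% and those of Rnmt cKO at 1.84 to 1.89%, whereas the RPF libraries of the genotypes overlap at left.

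The chaperones and scaffolds of the nucleolus changed in both directions. Nucleolin (Ncl, chr1:86344719-86359400 of GRCm38), which binds precursor rRNA, had 492, 456 and 649 CPM in the control libraries and 962, 1052 and 629.7 CPM in those of Rnmt cKO in total RNA. Its log2 fold change was 0.73 (SE 0.20, adjusted p = 0.016), although replicate 3 of Rnmt cKO lay below replicate 3 of the controls, and without control replicate 1 or 2 the value was 0.67 or 0.63, with adjusted p = 0.0606 in both. Nolc1, a chaperone of snoRNPs, increased by 0.50 ± 0.06 (log2 ± SE). Nucleophosmin (Npm1, chr11:33152287-33163206), the abundant scaffold and chaperone of the granular part of the nucleolus, fell from 1098, 1164 and 1003 CPM in controls to 830.1, 833 and 843 CPM in Rnmt cKO. Npm3 (chr19:45747734-45749591), of the same family, had 76, 74.4 and 66 CPM in the control libraries and 45.5, 47.9 and 45.9 CPM in those of Rnmt cKO. No library of Rnmt cKO reached the controls for either gene, and the log2 fold changes were -0.38 (SE 0.07, adjusted p = 0.00213) for Npm1 and -0.64 (SE 0.07, adjusted p = 2.32e-04) for Npm3.

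In RPF both nucleophosmins were again lower in every Rnmt cKO library, but the test was passed by 1 of them, beside 15.7% of all 11428 genes tested decreased in RPF and 14.1% increased. Npm1 had 1052, 1066 and 1019 CPM in the control libraries and 696, 689 and 658 CPM in those of Rnmt cKO, a log2 fold change of -0.62 (SE 0.06, adjusted p = 3.05e-04) and the largest decrease of the 58 genes. Npm3 had 84.9, 85.9 and 88.9 CPM in the control libraries and 81.8, 81.4 and 72.4 CPM in those of Rnmt cKO, with -0.14 (adjusted p = 0.192). Ncl, the gene with the most RPF per coding kilobase among the 58, had 3691, 3520.5 and 3498 CPM in the control libraries and 3358, 3468 and 2908 CPM in those of Rnmt cKO, with -0.14 (adjusted p = 0.25). Nolc1 was increased, by 0.36 ± 0.08.

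Of the box C/D core, which carries out ribose methylation, Nop56 and Nop58 were increased in total RNA and fibrillarin (Fbl), the methyltransferase, did not pass the test. Nop56 (chr2:130274430-130279313) had 211, 207 and 213 CPM in the control libraries and 432, 443 and 449 CPM in those of Rnmt cKO. The genotypes were well apart, with a log2 fold change of 1.07 (SE 0.05, adjusted p = 9.25e-06), and the increase of Nop58, its partner, was 0.40 ± 0.06. In RPF, Nop56 had 348, 314 and 366 CPM in the control libraries and 459, 506 and 456 CPM in those of Rnmt cKO and rose by 0.47 (SE 0.08, adjusted p = 0.00305), and Nop58 had 0.14 (adjusted p = 0.247). Fbl (chr7:28169710-28179269) had 14.7, 14.8 and 22.4 CPM in the control libraries and 30.5, 21 and 17.4 CPM in those of Rnmt cKO in total RNA and overlapped between genotypes, with 0.40 (adjusted p = 0.187). In RPF it had 75.2, 60.4 and 63.1 CPM in the control libraries and 54.9, 51.6 and 50.6 CPM in those of Rnmt cKO and fell, with -0.34 (SE 0.10, adjusted p = 0.0313). That decrease did not pass the threshold without control replicate 1 (-0.24), Rnmt cKO replicate 1 (-0.38), replicate 2 (-0.33) or replicate 3 (-0.32), or with library size without TMM (-0.32). Without replicate 3 of both genotypes, total RNA of Fbl was increased, by 0.79 (adjusted p = 0.00979), as it was without the filter on low counts (0.38, adjusted p = 0.00587). Its log2 fold change in total RNA ranged from 0.15 to 0.63 when 1 replicate was left out.

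The box H/ACA core, which makes pseudouridine, varied from gene to gene. Gar1 (chr3:129824912-129831396) had 15.7, 14.4 and 27.2 CPM in the control libraries and 66.6, 53.4 and 28.8 CPM in those of Rnmt cKO in total RNA, with replicate 3 of either genotype close to the other. Its log2 fold change was 1.37 (SE 0.34, adjusted p = 0.00954). In RPF it had 245, 217 and 232 CPM in the control libraries and 281, 272 and 265 CPM in those of Rnmt cKO and rose by 0.24 (SE 0.06, adjusted p = 0.0237), which did not pass the threshold without control replicate 2 (0.19), control replicate 3 (0.24), Rnmt cKO replicate 1 (0.22) or Rnmt cKO replicate 2 (0.24), without the filter on low counts (0.20) or with edgeR's exact test (0.24). Nhp2 had 178, 179 and 155 CPM in the control libraries and 234, 219 and 247 CPM in those of Rnmt cKO in total RNA and increased by 0.45 ± 0.08, while its RPF had -0.13 (adjusted p = 0.385). Dyskerin (Dkc1), the pseudouridine synthase itself, had 309, 297 and 302 CPM in the control libraries and 338, 331 and 322 CPM in those of Rnmt cKO, with 0.13 (adjusted p = 0.0786) in total RNA and -0.00492 (adjusted p = 0.969) in RPF. Nop10, the smallest subunit, had 208, 212 and 195 CPM in the control libraries and 181, 177 and 199 CPM in those of Rnmt cKO in total RNA. Its values were -0.14 (adjusted p = 0.0967) in total RNA and 0.08 (adjusted p = 0.392) in RPF, and without Rnmt cKO replicate 3 total RNA was decreased (-0.20, adjusted p = 0.0257), as with upper-quartile scaling (-0.20, adjusted p = 0.0472). Dkc1 and Nop10 were the 2 of the 58 genes that passed the threshold in none of the tests.

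Among the other enzymes that modify rRNA, Emg1 (chr6:124704085-124712178), a pseudouridine methyltransferase, was decreased in total RNA, from 310, 305 and 295 CPM in controls to 239, 236 and 275 CPM in Rnmt cKO. Its log2 fold change was -0.28 (SE 0.07, adjusted p = 0.0121), and -0.24 without Rnmt cKO replicate 1 (adjusted p = 0.0533). Nop2, a cytosine methyltransferase, increased by 0.63 ± 0.06 and Nat10, a cytosine acetyltransferase, by 0.16 ± 0.05, which passed the threshold without Rnmt cKO replicate 3 but not without any other 1 replicate (0.15 to 0.18). In RPF 0 of the 3 passed edgeR's threshold (2 with an unadjusted p under 0.05, 1 with DESeq2), and Emg1 had 249, 217 and 230.5 CPM in the control libraries and 254, 248 and 226 CPM in those of Rnmt cKO, where the genotypes overlapped.

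The small subunit factors were the largest group. Of 26 genes, 25 were increased in total RNA and Utp14a was decreased, beside 26.3% and 28.0% of all genes tested. These shares stand beside the total RNA counts of each module below as well. The median over the 26 was 0.71 (log2). In RPF 7 were increased and Utp14a was decreased, beside 14.1% and 15.7% of all genes tested, with a median of 0.14.

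All 5 listed genes of UTP-A, the module that joins the nascent rRNA first, increased in total RNA (0.52 to 1.58). Utp4 and Wdr75 also increased in RPF. Wdr43 (chr17:71615895-71659031) had 301, 294 and 309 CPM in the control libraries and 883, 891 and 926 CPM in those of Rnmt cKO in total RNA. The libraries of a genotype were close to each other, and the log2 fold change was 1.58 (SE 0.06, adjusted p = 5.84e-06). In RPF it had 301, 273 and 296 CPM in the control libraries and 294, 327 and 305 CPM in those of Rnmt cKO, and the libraries of the genotypes overlapped, with 0.09 (adjusted p = 0.349). The 4 listed genes of UTP-B increased in total RNA (0.47 to 0.88). In RPF 0 of these 4 passed edgeR's threshold (1 with an unadjusted p under 0.05, 0 with DESeq2).

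The 5 genes of the U3 snoRNP and Mpp10 module among the 58 also increased in total RNA (0.38 to 1.17). Utp3 had the largest rise of these and Mphosph10, the scaffold of the module, rose by 1.07 ± 0.06. Imp3, which pairs U3 snoRNA with the precursor rRNA, had 60.4, 58.1 and 59.8 CPM in the control libraries and 78.6, 75.4 and 78.3 CPM in those of Rnmt cKO in total RNA and 128, 137 and 139 CPM in the control libraries and 156, 174 and 161 CPM in those of Rnmt cKO in RPF. Neither overlapped, and the log2 fold changes were 0.38 (SE 0.05, adjusted p = 7.26e-04) and 0.28 (SE 0.07, adjusted p = 0.0147), the latter not past the threshold without control replicate 1 (0.24) or Rnmt cKO replicate 2 (0.24). Rrp9, a U3 binding protein, had 76.5, 79.1 and 85.7 CPM in the control libraries and 113, 114 and 108 CPM in those of Rnmt cKO in RPF and rose by 0.47 (SE 0.07, adjusted p = 0.00186) there.

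Among the other processome factors were the gene with the largest rise in total RNA and a gene that fell. Dnttip2 (chr3:122274388-122285271), a component of the processome, had 69.8, 80.5 and 81 CPM in the control libraries and 306, 289 and 277 CPM in those of Rnmt cKO. This was a log2 fold change of 1.91 (SE 0.08, adjusted p = 5.84e-06), or 3.77-fold. Its RPF did not follow, with 145, 142 and 134 CPM in the control libraries and 125, 138 and 132 CPM in those of Rnmt cKO and -0.09 (adjusted p = 0.307). Utp14a (chrX:48256862-48282453), which activates a helicase of the processome, had 136, 128 and 132 CPM in the control libraries and 98.2, 95.2 and 99.6 CPM in those of Rnmt cKO in total RNA and 160.1, 172 and 167 CPM in the control libraries and 148, 149 and 131 CPM in those of Rnmt cKO in RPF. Every Rnmt cKO library was below the controls in both, and the log2 fold changes were -0.43 (SE 0.05, adjusted p = 3.05e-04) and -0.22 (SE 0.07, adjusted p = 0.0472). The RPF decrease did not pass the threshold when any 1 replicate was left out (-0.25 to -0.16, adjusted p 0.0641 to 0.12), with library size without TMM (-0.19), with DESeq2 (-0.21) or with edgeR's exact test (-0.22). Utp20, Nop14, Noc4l, Bms1 and Ddx10 increased in total RNA, by 0.26 to 0.92. In RPF 0 of these 5 passed edgeR's threshold (0 with an unadjusted p under 0.05, 0 with DESeq2).

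The 5 late factors, which act on the small subunit on its way to the cytoplasm, increased in total RNA (0.24 to 0.74). Bysl had 104, 99.8 and 111 CPM in the control libraries and 142, 158 and 145 CPM in those of Rnmt cKO in RPF, with a log2 fold change of 0.50 (SE 0.07, adjusted p = 0.00172). Ltv1 also rose in RPF, by 0.40 ± 0.06, more than the 0.24 ± 0.07 of its total RNA, although the difference did not pass the test. The call in total RNA was lost without control replicate 1 (0.24), control replicate 2 (0.19) or Rnmt cKO replicate 1 (0.24). Nob1, the nuclease of the final cut, had 43.2, 46.8 and 46.7 CPM in the control libraries and 70.0, 61.6 and 48.2 CPM in those of Rnmt cKO in total RNA, with replicate 3 of Rnmt cKO just above the controls, and its call was lost without any 1 replicate other than Rnmt cKO replicate 3 (0.27 to 0.41).

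All 18 large subunit factors were increased in total RNA, beside 26.3% of all genes tested, with a median log2 fold change of 0.72. In RPF 8 were increased and Ddx21 was decreased, beside 14.1% and 15.7% of all genes tested. In the PeBoW complex, Bop1 and Pes1 rose in both kinds of library. Bop1 had 101, 95.6 and 97.8 CPM in the control libraries and 119.9, 120.3 and 121 CPM in those of Rnmt cKO in total RNA and 243, 253 and 255 CPM in the control libraries and 321, 343 and 318 CPM in those of Rnmt cKO in RPF. Pes1 had 114, 117 and 109 CPM in the control libraries and 144, 155 and 152 CPM in those of Rnmt cKO and 152, 132 and 146 CPM in the control libraries and 192, 205 and 182 CPM in those of Rnmt cKO, respectively. For both genes every Rnmt cKO library lay above the controls, with log2 fold changes of 0.29 ± 0.05 and 0.39 ± 0.06 for Bop1 and 0.41 ± 0.06 and 0.43 ± 0.07 for Pes1. Wdr12 increased in total RNA, by 0.34 ± 0.07, and had 0.14 (adjusted p = 0.237) in RPF.

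The other 15 large subunit factors included the fourth largest rise in total RNA. Brix1 (chr15:10474779-10485947), a large subunit assembly factor, had 50.5, 57.1 and 72.4 CPM in the control libraries and 176, 164 and 114 CPM in those of Rnmt cKO. The highest control and the lowest Rnmt cKO value were both replicate 3, and the log2 fold change was 1.33 (SE 0.18, adjusted p = 5.94e-04). Its RPF had 219.6, 181 and 199 CPM in the control libraries and 171, 177 and 182 CPM in those of Rnmt cKO, with -0.18 (adjusted p = 0.118), and without control replicate 2 they were decreased (-0.25, adjusted p = 0.0374). Ddx21 (chr10:62580251-62602281), a helicase that acts in rRNA transcription and processing, had 407, 417 and 462 CPM in the control libraries and 739.9, 732 and 574 CPM in those of Rnmt cKO in total RNA and 907, 971 and 976 CPM in the control libraries and 634, 732 and 611 CPM in those of Rnmt cKO in RPF. It was the one gene of the 58 that rose in total RNA (0.67 (SE 0.11, adjusted p = 0.0012)) and fell in RPF (-0.53 (SE 0.08, adjusted p = 0.00251)).

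Some large subunit factors rose in RPF. Nop16 had 146, 133 and 151 CPM in the control libraries and 199, 214 and 210.4 CPM in those of Rnmt cKO, the largest rise in RPF of the 58, with 0.53 (SE 0.07, adjusted p = 0.00106). Mrto4, which holds the place of a ribosomal stalk protein during assembly, had 82, 85.7 and 90.2 CPM in the control libraries and 125, 126 and 108 CPM in those of Rnmt cKO, with 0.48 (SE 0.08, adjusted p = 0.00351). Their total RNA rose by 0.29 ± 0.07 and 0.40 ± 0.06. Wdr74 was the gene with the lowest level per exonic kilobase, at 2.81, 3.65 and 3.39 CPM in the control libraries and 5.83, 6.13 and 7.54 CPM in those of Rnmt cKO, and its standard error was the largest in RPF.

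In RPF, 18 of the 58 genes were increased and 4 decreased, beside 14.1% of all 11428 genes tested increased and 15.7% decreased. The median log2 fold change was 0.14, and 0.00803 for all genes tested. Genotypes did not overlap for 32 of the 58, beside 46.5% of all genes tested. The 18 increased genes were all increased in total RNA too, and the 4 decreased ones were Npm1 and Utp14a, decreased in both, Ddx21, and Fbl. Without control replicate 1 or any 1 Rnmt cKO replicate, 2 genes were decreased in RPF. Over all genes tested, 1286 to 1548 were decreased in these fits, beside 1796 with all replicates. The number increased was 12 without Rnmt cKO replicate 2, where 1110 of all genes tested were increased, beside 1612 with all replicates.

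**Figure D3:**
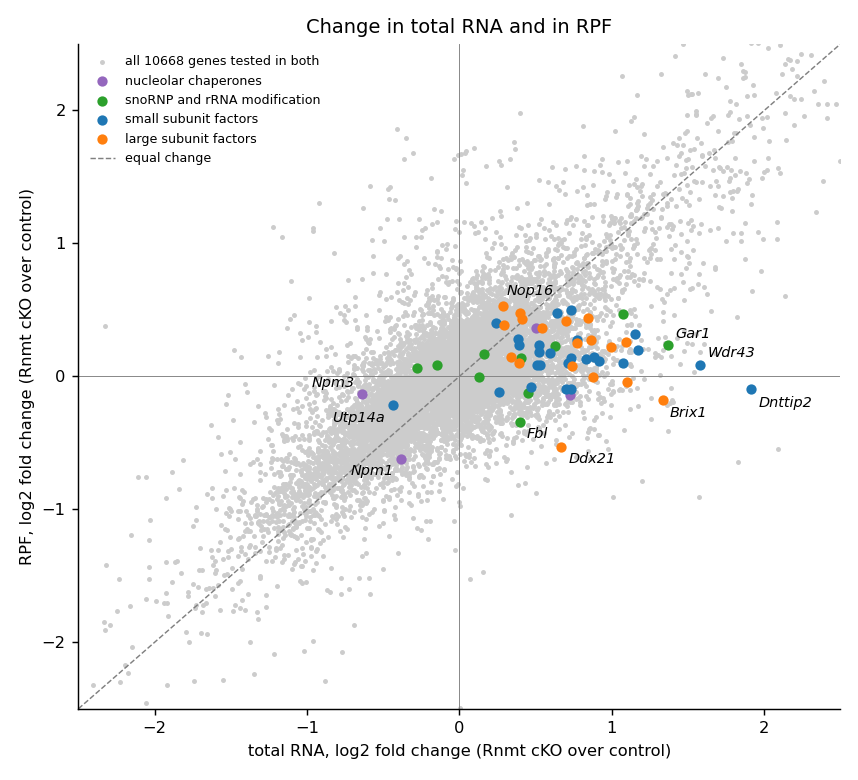
Log2 fold change of Rnmt cKO over control in total RNA (x axis) and RPF (y axis), for all 10668 genes tested in both (grey; those beyond the axes are not drawn) and the 58 genes (coloured by role); the dashed line marks equal change. Most coloured points lie to the right of 0 and below the line, and Dnttip2, at 1.91 and -0.09, lies farthest to the right among them.

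The ratio of RPF to total RNA approximates translation efficiency (TE), and its change was tested in 1 model of the 12 libraries, as the term by which the effect of genotype differs between RPF and total RNA. TE of these genes was mostly lower in Rnmt cKO cells. Of the 58 genes, 29 were decreased and 1, Npm3, was increased, beside 6.57% of 10668 genes tested decreased and 3.24% increased. The median log2 change was -0.43 (0.740-fold), and 0.04 for all genes tested. The log2 ratios of the genotypes did not overlap for 43 of the 58, beside 31.5% of all genes tested. The count of decreased genes was 21 to 28 when 1 replicate was left out, and without control replicate 1 or Rnmt cKO replicate 1 no gene was increased.

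Total RNA was increased for all 29 genes with decreased TE, as it was for 613 of the 701 such genes among all genes tested (5.75% of 10668 had both calls). For 23 of the 29, RPF did not pass the threshold in either direction, beside 465 of the 613. Nop56, Utp4, Wdr75, Utp3 and Ddx18 rose in RPF as well, and Ddx21 fell. The RPF calls of Utp4, Wdr75, Utp3 and Ddx18 were each lost when some single replicates were left out (0.24 to 0.34 for Utp4, 0.20 to 0.31 for Wdr75, 0.17 to 0.21 for Utp3 and 0.23 to 0.24 for Ddx18 where lost). The test of TE uses the same total RNA libraries, so these calls are not independent of those in total RNA.

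By role, TE was decreased for 17 of 26 small subunit factors, with a median log2 change of -0.52, and for 8 of 18 large subunit factors, with a median of -0.46, beside 6.57% of all genes tested. Counts by module cover only the genes listed here, which need not be all genes of a complex. TE was decreased for 4 of 5 of UTP-A, 3 of 4 of UTP-B and 3 of 5 of the U3 and Mpp10 module. It was also decreased for 5 of 7 other processome factors and 2 of 5 late factors. Of the 3 PeBoW genes 0 passed edgeR's threshold (0 with an unadjusted p under 0.05, 0 with DESeq2), with values of 0.09 ± 0.08 for Bop1, 0.02 ± 0.09 for Pes1 and -0.19 ± 0.11 for Wdr12. The differences between roles were not tested.

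Dnttip2 had the largest decrease in TE. Its log2 ratios of RPF to total RNA were 1.05, 0.82 and 0.73 in controls and -1.29, -1.07 and -1.07 in Rnmt cKO, a change of -2.01 (SE 0.10, adjusted p = 7.18e-07). Brix1 had ratios of 2.12, 1.66 and 1.46 in controls and -0.04, 0.11 and 0.68 in Rnmt cKO, with replicate 3 of each genotype closest to the other, and a change of -1.51 (SE 0.22, adjusted p = 7.04e-04). For Wdr43 the ratios were -0.00, -0.11 and -0.06 in controls and -1.59, -1.45 and -1.60 in Rnmt cKO, with a change of -1.49 (SE 0.09, adjusted p = 1.09e-06). Those of Ddx21 were 1.16, 1.22 and 1.08 in controls and -0.22, 0.00 and 0.09 in Rnmt cKO, with a change of -1.20 (SE 0.14, adjusted p = 1.92e-04). None of these 4 genes overlapped between genotypes. Noc2l and Noc3l, partners in large subunit assembly, changed by -1.14 ± 0.09 and -0.88 ± 0.08.

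Npm3 moved the other way. Its log2 ratios were 0.16, 0.21 and 0.43 in controls and 0.85, 0.76 and 0.66 in Rnmt cKO, without overlap, and the change was 0.50 (SE 0.10, adjusted p = 0.00584), or 0.44 without control replicate 1 (adjusted p = 0.0578) and 0.45 without Rnmt cKO replicate 1 (adjusted p = 0.0587). Emg1 had ratios of -0.32, -0.49 and -0.36 in controls and 0.09, 0.07 and -0.28 in Rnmt cKO and a change of 0.35 (adjusted p = 0.0613), which passed the threshold without Rnmt cKO replicate 3 (0.47, adjusted p = 0.011), with upper-quartile scaling (0.39, adjusted p = 0.0445) and with DESeq2 (0.33, adjusted p = 0.0408). Npm1 changed by -0.24 (adjusted p = 0.125), and with DESeq2 it was decreased (-0.25, adjusted p = 0.0313), and Utp14a by 0.22 (adjusted p = 0.148).

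Ncl had ratios of 2.91, 2.95 and 2.43 in controls and 1.80, 1.72 and 2.21 in Rnmt cKO, a change of -0.86 (SE 0.24, adjusted p = 0.0365). It did not pass the threshold without control replicate 1 (-0.79), control replicate 2 (-0.78), Rnmt cKO replicate 1 (-0.82) or Rnmt cKO replicate 2 (-0.77). In the snoRNP cores, Nop56 fell by 0.60 ± 0.10, while Nop58 (-0.26 (adjusted p = 0.152)), Dkc1 (-0.13 (adjusted p = 0.457)) and Nop10 (0.23 (adjusted p = 0.184)) did not pass the threshold. Nhp2 changed by -0.58 (SE 0.14, adjusted p = 0.0196), and its call was lost without control replicate 1 (-0.58), control replicate 3 (-0.50), Rnmt cKO replicate 1 (-0.48) or Rnmt cKO replicate 3 (-0.53). Fbl had ratios of 2.35, 2.03 and 1.49 in controls and 0.85, 1.30 and 1.54 in Rnmt cKO and overlapped between genotypes (-0.74 (adjusted p = 0.118)), and without replicate 3 of both genotypes it was decreased (-1.15, adjusted p = 0.016). Gar1 had ratios of 3.96, 3.90 and 3.09 in controls and 2.08, 2.34 and 3.20 in Rnmt cKO, also with overlap (-1.13 (adjusted p = 0.0707)). With a block for each pair of total RNA and RPF libraries of the same replicate, Gar1 was decreased (-1.11, adjusted p = 0.0317), as it was without control replicate 3 (-1.47) or Rnmt cKO replicate 3 (-1.39). Imp3 had -0.10 (adjusted p = 0.511).

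In control cells these genes had more RPF for their total RNA than most genes. The median over the 58 of the mean log2 ratio was 0.67 in controls and 0.26 in Rnmt cKO, beside 0.18 and 0.19 for all 10668 genes tested. Ranked among those genes, 51 of the 58 lay above the 50th percentile in controls and 32 in Rnmt cKO, with medians at the 71.2 and 53.1 percentile. Gar1 was highest, at the 99.6 and 98.6 percentile, and Wdr74 lowest, at the 15.6 and 5.00. Dnttip2 moved from the 78.5 to the 10.0 percentile and Wdr43 from the 40.7 to the 5.65. These levels were not tested, and they differ between genes by length because RPF lie in the coding sequence whereas total RNA covers the whole mRNA.

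Levels were compared between genes per length. In controls, total RNA ranged from 1.76 CPM per exonic kilobase (Wdr74) to 408 (Npm1), with a median of 30.2. RPF ranged from 1.54 CPM per coding kilobase (Wdr74) to 1683 (Ncl), with a median of 110.3. After Ncl, the highest RPF levels per coding kilobase were 1391 for Nop10 and 1076 for Npm1. In total RNA per exonic kilobase Ncl was at 52.3, and Nop10 at 185. Exonic length covered every annotated exon of a gene, with 10188 bases for Ncl and 1109 for Nop10. Levels per exonic kilobase thus depend on the annotation as well.

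The plot of single libraries shows the patterns side by side. Dnttip2 and Wdr43 rose in total RNA and not in RPF, Nop56 rose in both, Ddx21 rose in total RNA and fell in RPF, and Npm1 fell in both. For Ncl and Gar1 the total RNA of replicate 3 lay between the genotypes.

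**Figure D4:**
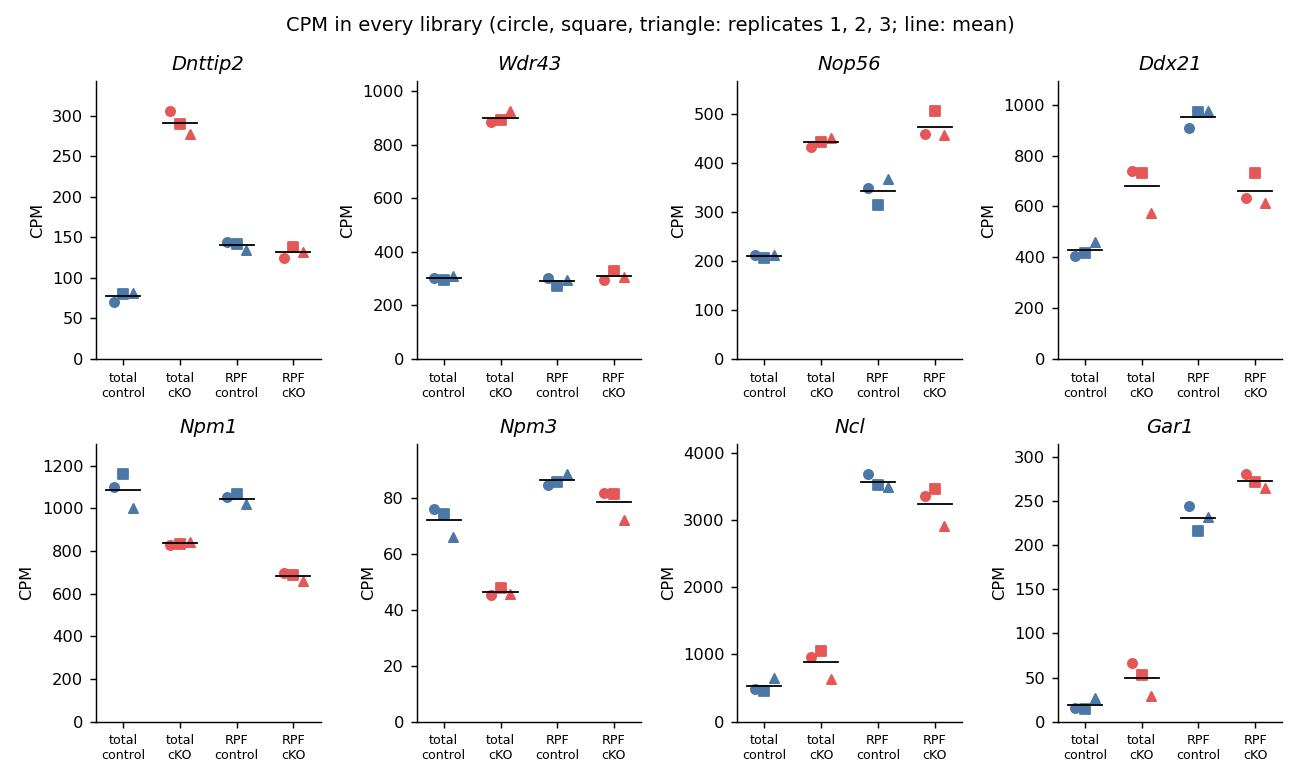
CPM (y axis, from 0) of 8 genes in every library of total RNA and RPF (x axis); blue is control, red is Rnmt cKO, circles, squares and triangles are replicates 1, 2 and 3, and lines are means of 3. Dnttip2 has 277 to 306 CPM in total RNA of Rnmt cKO against 69.8 to 81.0 in controls, whereas its RPF lie at 125 to 145 in all 6 libraries.

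The replicates were compared across the whole list. Against the control mean, the median log2 difference over the 58 genes in total RNA was 0.01, -0.01 and 0.03 in control replicates 1, 2 and 3 and 0.63, 0.69 and 0.57 in those of Rnmt cKO. In RPF the Rnmt cKO replicates were at 0.13, 0.23 and 0.07, and in log2 RPF over total RNA at -0.49, -0.39 and -0.48. Without replicate 3 of both genotypes, total RNA rose for 51 genes and fell for 5, RPF rose for 15 and fell for 2, and TE fell for 28 and rose for 2. Over all genes tested in that fit, total RNA rose for 3232 and fell for 3237. RPF rose for 1181 and fell for 1207, and TE fell for 806 and rose for 345.

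Of the 58 genes, 7 carry snoRNA genes within their bounds on the same strand (Ncl, Nop56, Nop58, Dkc1, Wdr43, Tsr1 and Gnl3), 21 snoRNA genes in all. In total RNA 6 of the 7 host genes were increased, beside 51 of all 58 and 26.3% of all genes tested, and Dkc1 did not pass the threshold. Of the snoRNA genes, 7 passed the filter in total RNA and 0 of these passed edgeR's threshold (0 with an unadjusted p under 0.05, 0 with DESeq2), with log2 fold changes from 0.00159 to 0.38. Whether reads of the snoRNAs were counted apart from those of their hosts was not checked. Some snoRNA genes, such as Snord57 in Nop56 and Snora75 in Ncl, had 0 CPM in all 12 libraries.

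Other genes of ribosome biogenesis, from a separate list, also had more increases than decreases in total RNA. Among 87 such genes, total RNA rose for 66 and fell for 4, beside 26.3% and 28.0% of all genes tested. RPF rose for 35 and fell for 2, beside 14.1% and 15.7%, and TE rose for 6 and fell for 24, beside 3.24% and 6.57%. Their median log2 change was 0.40 in total RNA (0.63 for the 58 genes), 0.20 in RPF (0.14 for the 58) and -0.14 in TE (-0.43 for the 58). Whether the lists differ was not tested. Without control replicate 1 or Rnmt cKO replicate 1 RPF rose for 22 of the 87, and for 18 without Rnmt cKO replicate 2. Over all genes tested, RPF rose for 1126, 1141 and 1110 in these fits, beside 1612 with all replicates. Total RNA fell for 2 without control replicate 1 or 2 or Rnmt cKO replicate 1 or 2, and RPF for 1 when any 1 replicate was left out. Gtpbp4, a GTPase of large subunit assembly, had 169, 169 and 180.4 CPM in the control libraries and 429.5, 435 and 457 CPM in those of Rnmt cKO in total RNA, with 1.35 ± 0.06. Nol9, a kinase of rRNA processing, and Surf6, a nucleolar matrix protein, rose by 1.21 ± 0.07 and 1.19 ± 0.06 in total RNA. Nsa2, of large subunit assembly, had 26.3, 30.6 and 26.8 CPM in the control libraries and 19.6, 15.9 and 16.7 CPM in those of Rnmt cKO and fell, with -0.69 ± 0.11 in total RNA and -0.67 ± 0.14 in RPF. Nop53 and Pih1d1 fell in total RNA as well, with -0.40 (adjusted p = 0.00296) and -0.29 (adjusted p = 0.0497).

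In RPF the largest rises of that list were those of Rsl24d1, which holds the place of a ribosomal protein (0.76 ± 0.09), Utp23 (0.73 ± 0.08) and Trmt112, a partner of methyltransferases (0.67 ± 0.20). Besides Nsa2, Sdad1 fell there, with -0.18 (adjusted p = 0.0493). In TE, Nol9, Tex10 and Cebpz had the largest decreases, with -1.23 ± 0.11, -1.22 ± 0.09 and -1.16 ± 0.09. Rsl24d1, Nop53 and Rbm28 rose, with 0.46 ± 0.10, 0.40 ± 0.11 and 0.40 ± 0.09. No gene of the list was increased in TE without control replicate 1 or 2, while 1 was when Rnmt cKO replicate 1 was left out and 2 when replicate 2 of it was. Over all genes tested, TE rose for 123 to 181 in these fits, beside 346 with all replicates.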

How the data were processed

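Total cytoplasmic RNA and RPF libraries of 3 control and 3 Rnmt cKO samples were grouped by their labels. The members and all lists were chosen with earlier results of these data known. The authors selected read 2, trimmed it with cutadapt, removed rRNA and tRNA with Bowtie, aligned to mm10 (GRCm38) with STAR 2.5.2b, and deposited whole-number counts per gene without normalization. The authors also deposited a table of signal values (counts divided by an effective library size). It served for symbols and to choose the reverse-strand counts. Its columns of the authors' fold changes and p-values were not used.

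The filter kept genes with CPM above 1, by library size, in at least 3 of 6 libraries of a kind. After TMM normalization these genes were tested with edgeR 4.0.16 in R 4.3.3 (quasi-likelihood F test, threshold 0.05 on Benjamini-Hochberg adjusted p over all genes). TE was tested by the term of 12 libraries in which genotype and library kind interact. CPM values given for libraries are TMM-normalized. Standard errors are on the log2 scale. Log2 RPF over total RNA used a prior count of 0.5. Same-numbered total RNA and RPF libraries deviated together (correlations across genes from 0.11 to 0.361), so a block for each such pair of libraries was tried in TE. No 2 libraries held identical values. Other biogenesis genes were found for 87 of 88 names. Genes named were, in each test, the 4 largest rises and falls past the threshold without overlap, plus Ncl, Npm1, Npm3, Utp14a, Imp3, Emg1, the snoRNP cores and PeBoW, and for the other list the 3 largest rises and falls; further genes were named after their values were seen. In simulated data, 2-fold changes were found for 93% of genes in total RNA (11519 genes), 83% in RPF (11428) and 73% in TE (10668), and 1.5-fold changes for 70%, 52% and 31%. Alternatives were other normalizations, filters, strands and tests (DESeq2 1.42.0), blocks, and leaving out replicates. Coordinates are from GENCODE vM21 on the same build, whereas the authors counted on vM12. Figures used matplotlib 3.10.9.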

Additional observations from a re-analysis of the deposited data

How the results depend on the processing

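Of 72 values of the 24 genes that the naming rule gave (3 tests each), recomputed 1128 times over all alternatives, 1061 kept their direction and side of the threshold, 41 lost the call, 16 gained it and 10 changed sign. The sign changes were those of Dkc1 in RPF, near 0 in every case (0.0199 with library size without TMM, 0.00627 with DESeq2, 0.00485 with protein-coding genes alone, -0.0462 to 0.0645 when replicates were left out), and of Pes1 in TE (-0.00400 with counts of both strands, -0.0619 to 0.106 when replicates were left out). Neither was past the threshold in any of these. Of 102 values of the other 34 genes, recomputed 1597 times, 1478 kept direction and side, 75 lost the call, 31 gained it and 13, not past the threshold at the outset, changed sign.

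For the 58 genes, 2 were decreased in RPF with library size without TMM, and 2 were increased in TE with upper-quartile scaling and with DESeq2. When replicates were left out, 2 to 4 were decreased in RPF, 0 to 2 increased in TE, and the median TE change was -0.52 to -0.43. For the other 87 genes, decreases in total RNA were 2 with library size without TMM, DESeq2 and the replicate block, and the median was 0.44 with library size without TMM and 0.35 with upper-quartile scaling. Decreases in RPF were 1 with library size without TMM, DESeq2, the exact test, no filter, protein-coding genes alone and the replicate block, and in TE increases were 2 without the filter and the median was -0.0910 with upper-quartile scaling. Over left-out replicates the ranges for these 87 were 2 to 4 decreased and a median of 0.37 to 0.41 in total RNA, 18 to 36 increased and 1 decreased in RPF, and 0 to 6 increased and a median of -0.19 to -0.11 in TE. The cause of these changes was not tested, and fewer libraries remain when replicates are left out. Calls over all genes tested varied too when 1 replicate was left out. Increases were 1110 to 1431 in RPF and 123 to 365 in TE, beside 1612 and 346 with all replicates. Upper-quartile scaling moved the share of increased genes among all TE calls from 33.0 to 44.3%.

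Replicate numbers did not pair the genotypes (correlations of -0.527 to -0.225 for total RNA libraries, -0.072 to 0.134 for RPF libraries), and the replicate block left 48 of the 58 genes increased in total RNA and 18 in RPF, without the calls of Ncl in total RNA (0.71) and Utp14a in RPF (-0.22). In TE, where each pair of total RNA and RPF libraries of a replicate formed a block, 32 were decreased. Leaving out replicate 3 of both genotypes was chosen after seeing the data. At the depth of the RPF libraries, the median standard error over the 58 genes was 0.08 in RPF and 0.10 in TE. Over all genes tested these medians were larger, at 0.12 and 0.16. In simulated data of this depth for all genes tested, 52% of genes changed 1.5-fold and 83% of those changed 2-fold were found in RPF. In TE these shares were 31% and 73%, so changes of 2-fold can be missed among all genes tested. How often they are missed among the 58 genes alone was not tested.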

Other observations

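Between the 3 control libraries of total RNA, the SD of log2 CPM was 0.50 for Gar1, 0.35 for Fbl, 0.27 for Ncl and 0.26 for Brix1, at the 97.0, 92.8, 87.8 and 87.3 percentile of all 11519 genes tested, and the next of the 58 genes was Wdr74 with 0.19. Between the Rnmt cKO libraries these SDs were 0.63, 0.41, 0.40 and 0.34. In each of these 4 genes, replicate 3 was the highest control and the lowest Rnmt cKO library in total RNA. These genes were picked after their values were seen.

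Of the 21 snoRNA genes within the 58 genes, 10 passed the filter in RPF libraries, where 5 were increased in Rnmt cKO and none decreased, beside 14.1% and 15.7% of all 11428 genes tested. The 5 had log2 fold changes of 1.63 for Snord70 in Nop58, 1.87 for Snord92 and 1.08 for Gm22858 in Wdr43, and 0.87 for Snord69 and 1.65 for Snord19 in Gnl3. Snord70 had 0.468, 1.05 and 0.856 CPM in controls and 2.10, 2.14 and 3.19 CPM in Rnmt cKO. Snord92 had 0.468, 2.56 and 0.978 CPM in controls and 2.57, 4.68 and 7.12 CPM in Rnmt cKO. Both passed the filter only with their Rnmt cKO libraries. Because snoRNAs are non-coding, these reads are not a measure of translation, and their source was not tested.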
